A study of Mus musculus with 6 samples.

Results

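The 671 circular RNAs (circRNAs) described here are those with at least 5 back-splice junction reads summed over 6 RNA sequencing libraries of C17.2 cells, among 2805 circRNAs in the deposited table. C17.2 is an immortalized mouse neural stem cell (NSC) line, and the libraries came from a control group and a hypoxia/reoxygenation (H/R) group, with 3 libraries each. H/R cells were held for 12 h in a chamber with 5% oxygen and then kept for 48 h at standard oxygen, as a culture model of ischemia and reperfusion, while both groups share the same line and medium. Nothing in the labels or the study's methods states if replicate libraries were grown as separate cultures, and all p-values here therefore reflect library-to-library spread, which may be technical. All cells are of 1 line, which is a limit of the model.

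A circRNA forms when the end of an exon is spliced back to the start of the same exon or of one upstream, and the closed circle lacks the free ends that exonucleases attack. The read that spans this back-splice junction is the evidence for the circle, since the linear mRNA of the host gene does not hold that order of exons. Nervous tissue is known for many circRNAs, and back-splicing competes with linear splicing of the same transcript.

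The junctions of the most abundant circles were written out from their reported coordinates and annotated exons, not from sequencing reads, so the order shown is the predicted one. The sequences below are from GENCODE vM21 transcripts (GRCm38, the same coordinates as mm10), read 5′ to 3′, with the last 25 bases of the circle in lower case and its first 25 bases in capitals, so the join of the 2 cases is the back-splice. They are shown because these letters, and not the host gene, define each circle. Neither end of the Gm53 circle and only 1 end of the Hnrnpd circle was an annotated exon end. Both circles are among the 10 with the most reads, and no sequence is given for them.
Tulp4, chr17:6137211-6139156, plus strand: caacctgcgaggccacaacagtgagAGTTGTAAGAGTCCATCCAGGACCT
Nfkb1, exons 2 to 6, chr3:135655500-135669339, minus strand: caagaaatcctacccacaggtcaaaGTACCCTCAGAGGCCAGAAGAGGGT
Hipk3, exon 2, chr2:104470749-104471847, minus strand: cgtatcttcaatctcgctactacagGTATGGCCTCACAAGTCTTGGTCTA
Tcf20, exon 2, chr15:82851513-82857284, minus strand: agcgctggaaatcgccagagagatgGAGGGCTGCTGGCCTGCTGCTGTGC
Tcf20, exons 2 to 3, chr15:82825231-82857284, minus strand: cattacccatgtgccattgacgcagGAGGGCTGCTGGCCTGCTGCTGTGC
Erbb2ip, exons 2 to 4, chr13:103884143-103889285, minus strand: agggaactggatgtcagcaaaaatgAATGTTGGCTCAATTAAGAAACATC
Ttc3, exons 2 to 11, chr16:94383912-94403368, plus strand: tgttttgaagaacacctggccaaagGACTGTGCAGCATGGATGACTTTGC
Glis3, exon 4, chr19:28530873-28531986, minus strand: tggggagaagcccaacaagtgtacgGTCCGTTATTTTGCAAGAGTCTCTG
The pair of Tcf20 circles have the same capitals, because both start at exon 2, and differ in the exon that is joined back to it. For Tulp4 the ends are exon ends of different annotated transcripts, and none holds both.

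Most of the 671 circles were exonic. The file classed 587 circles (87.5%) as exonic, 65 as sense overlapping, 16 as intronic, 2 as intergenic and 1 as antisense. Both ends lay exactly at annotated exon ends in 594 circles (88.5%), against 77.9% of the 2134 circles below 5 reads, which the choice by reads did not use. Of the 582 circles whose ends fell in 1 transcript, 265 began at exon 2, none began at exon 1 and none held the last exon. Such circles held a single exon in 46 cases, 2 to 5 exons in 401 and 6 or more in 135. The start codon with part of the 5′ UTR lay in 142 circles, and 422 were made of coding exons only. Of the members, 554 stood in the catalogues that the file cites and 117 (17.4%) in none of them, while 1002 of the circles below 5 reads (47.0%) stood in none.

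The circles covered 152 to 99664 bp of genome, with a median of 9757 bp. After removal of introns the predicted length of the exonic circles had a median of 586 bases, from 128 to 5866. Circles below 5 reads had a median span of 10544 bp and, for exonic ones, a median predicted length of 618 bases. The members had a median of 7 junction reads over the 6 libraries, and an upper quartile of 11. The 10 circles with the most reads held 18.1% of the 8813 member reads. At the limit of the rule stood 186 circles with exactly 5 reads (301 from control and 629 from H/R libraries), and just below it 324 with exactly 4 (392 and 904).

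Recurrence across libraries was limited. Of the members, 74 were seen in all 6 libraries and held 42.7% of the member reads, 157 were seen in 2 libraries, and 96 in a single one. Among the 96, 41 came from H/R replicate 3 alone, where a circle each of Ncor1, Vps13d and Rnf4 had 8 reads and no read elsewhere (named after their values were seen). H/R libraries alone gave 160 members and control libraries alone 43. H/R libraries had 1703 to 2120 member reads and controls 887 to 1170, so the rule took more of its reads from H/R.

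Gene counts came to 7267809 to 8371882 in the control libraries and 15639751 to 16830389 in H/R, so circles are given in junction RPM, the junction reads per 1000000 gene counts of the same library. Gene levels are given in CPM, gene counts per 1000000 after TMM scaling. Reads amplified by PCR carry no molecular identifiers, so a read is not an independent molecule. Of the neural stem cell markers, Vim, Nes, Sox2, Notch1 and Msi1 were detected, while Pax6, Prom1 and Fabp7 had no entry among the genes counted. Summed markers of astrocytes ran from 0 to 0.150 CPM in control and from 0.275 to 1.37 CPM in H/R, and those of microglia and macrophages reached at most 0.649 CPM; Gfap was at 0 in all controls, and the summed neuron markers, almost all from Map2, ran from 73.2 to 80.9 CPM in control and from 33.4 to 36.5 CPM in H/R. The part of these markers in the results was not tested. Fewer cells of a kind and less RNA per cell cannot be told apart in such bulk libraries.

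Circle level as a whole did not differ beyond the spread between libraries. The members gave 106, 143 and 147 junction RPM in control replicates 1, 2 and 3 and 111, 109 and 134 in the H/R replicates. The means were 132 ± 22.4 and 118 ± 13.8 (SD, n = 3 libraries each), the groups overlapped, and the exact permutation test, two-sided, gave p = 0.4 (adjusted 0.6 over 3 library values). With 3 libraries in each group the smallest p that this test allows is 0.1. Over all 2805 circles the means were 210 ± 39.7 and 194 ± 14.0 (exact permutation p = 0.6, adjusted 0.6). Members made up 57.96% to 64.0% of the junction reads of a library.

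The number of members seen is given as a description, because it uses the reads that chose them. Controls held 298, 302 and 306 of the 671 members and H/R libraries 414, 419 and 416. Reduced to 887 member reads, the lowest of the 6 libraries, the expected numbers were 298, 278 and 288 in control and 325, 339 and 329 in H/R. The members were chosen on reads pooled over all libraries, of which H/R gave the larger part, so the H/R libraries were favoured by the choice on both scales, and no test is given.

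**Figure D1:**
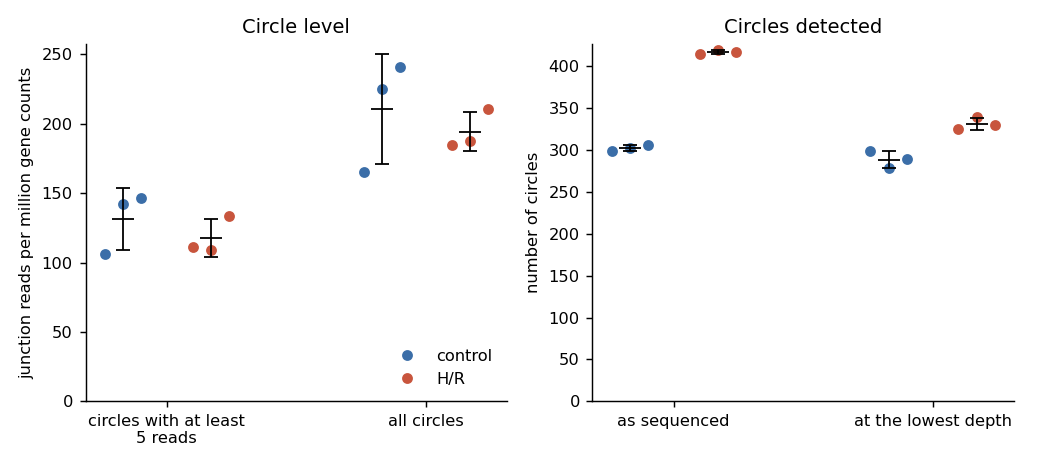
Left, junction RPM (reads per 1000000 gene counts) of the 671 circles with at least 5 reads and of all 2805 circles; right, the number of those 671 circles detected in each library, as sequenced and when reduced to 887 member reads. Each point is a library, and the bars give the mean and SD of 3 libraries. Circle levels overlap between the groups, and the numbers detected, 298 to 306 in control and 414 to 419 in H/R as sequenced, are of circles chosen on pooled reads that came mostly from H/R.

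By genomic span, circles of 1 to 10 kb (278 circles) and of 10 to 50 kb (292) held most member reads, 44.5% and 44.2%. Circles of 1 to 10 kb gave 50.5, 63.8 and 68.9 junction RPM in control and 48.7, 50.2 and 54.6 in H/R, a log2 ratio of -0.26. Those of 10 to 50 kb gave 42.6, 63.6 and 60.7 against 50.3, 45.6 and 64.0. The 62 circles under 1 kb gave means of 10.1 ± 1.89 and 8.84 ± 0.208, and the 39 over 50 kb 4.86 ± 1.26 and 4.58 ± 1.65 (SD, n = 3). All 4 classes overlapped between the groups, with exact permutation p of 0.2 to 1 and adjusted p of 0.6 to 1. As a share of member reads, circles of 1 to 10 kb took 46.5 ± 1.52% in control and 43.6 ± 2.63% in H/R (exact permutation p = 0.2, adjusted 0.4).

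By circles per host, the largest class was that of 419 genes with 1 circle each. They gave 52.3, 66.6 and 73.1 junction RPM in control and 59.0, 60.0 and 73.0 in H/R, and the means were the same to 3 digits (64.0). As a share of member reads these circles took 48.7 ± 1.67% in control and 54.3 ± 1.02% in H/R, with no overlap (exact permutation p = 0.1, adjusted 0.15). The 90 hosts with 2 to 3 circles took 37.0 ± 2.90% and 32.9 ± 0.940%, again without overlap and with the same p values. The 2 shares are parts of 1 total and are not independent. The circles, and so their number per host, were chosen on reads pooled over all libraries, of which H/R gave the larger part. The choice can therefore shift these shares between the groups, and their p values cannot separate a change from it. With all circles of the table, the log2 ratios of junction RPM were -0.041 for 1 circle and -0.066 for 2 to 3 circles. Over the members alone they were 0.00021 and -0.34.

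The 8 hosts with 4 or more circles (40 circles) gave 17.2, 20.6 and 15.4 junction RPM in control and 14.6, 10.2 and 14.4 in H/R. Every H/R library was below every control, at a log2 ratio of -0.44 (exact permutation p = 0.1, adjusted 0.3). This class, too, was set by circles chosen on pooled reads, and its log2 ratio was -0.29 with all circles of the table. With only circles of at least 10 reads counted and summed, the log2 ratio of this class was -0.05 (exact permutation p = 0.9). Without the 4 circles of Tulp4, the values were 11.3, 10.1 and 8.81 against 8.08, 6.07 and 9.15, and the groups overlapped (exact permutation p = 0.2).

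**Figure D2:**
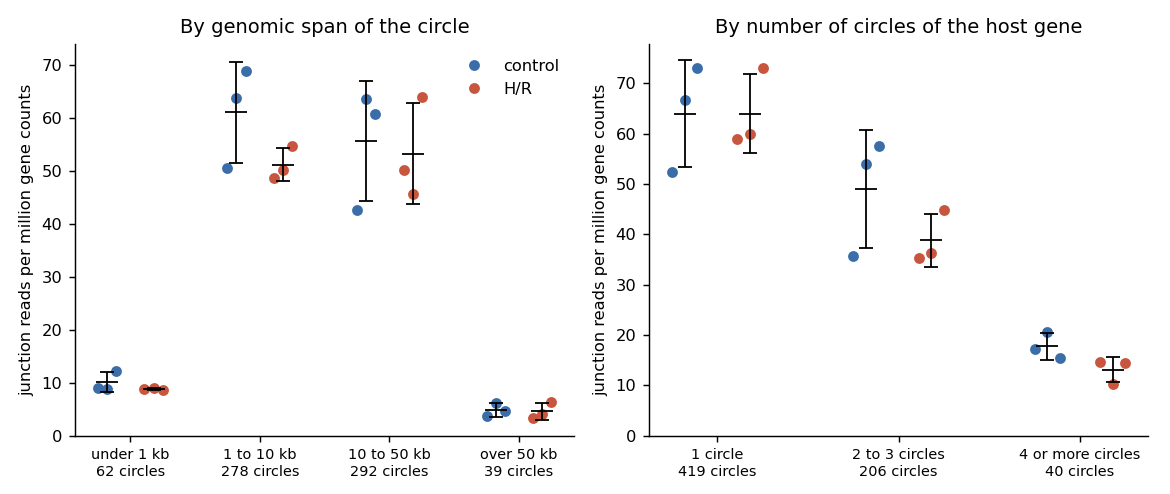
Junction RPM (reads per 1000000 gene counts) of the circles grouped by genomic span (left) and by the number of member circles of the host gene (right), with each library as a point and bars for the mean and SD of 3 libraries. The circles of hosts with 4 or more circles are the only class in these panels in which control and H/R libraries do not overlap.

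No single circle passed the test. In edgeR's quasi-likelihood test 0 of 671 circles (0%) had an adjusted p under 0.05 and 40 had an unadjusted p under 0.05. DESeq2 also called 0, with 15 at an unadjusted p under 0.05. The coefficient of variation between replicates was 1.06 for circles and 0.144 for genes, and the fold changes of single circles carry wide errors. In simulated counts of these depths planted changes were not called either, so the count of 0 does not show that circles did not change. Without overlap between the groups, 27 circles were lower and 27 higher in H/R, 8.05% of the members together, beside the 0% called. With no group difference, 3 against 3 libraries part fully with a probability of up to 0.1, the smallest p of the exact permutation test. This share is therefore no evidence of a change, and neither is a lack of overlap in a single circle.

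The circle with the most reads was that of Tulp4, a gene of the tubby-like protein family (372 reads). It gave 5.73, 9.62 and 5.92 junction RPM in control and 5.17, 2.94 and 4.35 in H/R, from 43 to 87 reads a library. All H/R libraries were below all controls, at a log2 fold change of -0.77 (standard error 0.29, adjusted p = 0.646, edgeR). Without control replicate 1 the same test gave -0.90 and an adjusted p of 0.0207. The Tulp4 mRNA was at 449 ± 37.4 CPM in control and 420 ± 7.86 CPM in H/R (adjusted p = 0.408).

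The Gm53 circle followed with 324 reads. It lies at chr11:96262812-96264845 in a gene that GENCODE classes as a lincRNA, and neither end is an annotated exon end. It gave 4.78, 5.72 and 7.29 junction RPM in control and 3.74, 4.03 and 3.66 in H/R, again with no overlap (log2 fold change -0.64, standard error 0.31, adjusted p = 0.646, edgeR). Counts of its host were 89.8 ± 2.48 and 85.2 ± 4.32 CPM (adjusted p = 0.571).

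Erbb2ip, which encodes the ERBB2-interacting scaffold erbin, also had a circle of this kind. The circle of its exons 2 to 4 gave 3.11, 1.22 and 2.20 junction RPM in control and 1.13, 0.703 and 1.14 in H/R. The log2 fold change was -1.13 (standard error 0.52, adjusted p = 0.646, edgeR), and the lowest control was only just above the highest H/R library. The size of all 3 differences depended on the scaling. With TMM factors computed over the circles the log2 fold changes shrank to -0.20 for Tulp4, -0.05 for Gm53 and -0.65 for Erbb2ip (adjusted p = 0.865, 0.996 and 0.557, edgeR). With TMM factors of the gene counts they grew to -0.98, -0.85 and -1.34 in the same order (adjusted p = 0.201, 0.500 and 0.529, edgeR).

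The other abundant circles overlapped between the groups. The circle of Nfkb1, which encodes the p105 precursor of NF-κB p50, gave 3.11, 2.44 and 3.44 junction RPM in control and 1.901, 2.05 and 2.65 in H/R. The single-exon circle of Hipk3, a kinase gene whose exon 2 circle is among the best known in mammals, gave 0.597, 2.19 and 2.89 against 2.20, 1.98 and 1.14. Control replicate 1 was the lowest of the 6 libraries for Hipk3 and for both circles of Tcf20, a transcriptional coregulator gene. The longer Tcf20 circle gave means of 1.17 ± 0.583 and 1.28 ± 0.365, the shorter 1.71 ± 1.07 and 1.84 ± 0.0981 (SD, n = 3), so H/R libraries were nearly alike for the latter.

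For Ttc3, which encodes an E3 ubiquitin ligase, the means were 1.67 ± 0.702 and 1.14 ± 0.177. The Hnrnpd circle, from the gene of the RNA-binding protein AUF1, stood in none of the catalogues and gave 1.12 ± 0.612 and 1.41 ± 0.987. Over these 10 circles the edgeR log2 fold changes ran from -1.13 to 0.32.

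Glis3, a Krüppel-like zinc finger gene, gave a pair of circles that share 1 end. The exon 4 circle had 6, 10 and 25 reads in control and 18, 7 and 18 in H/R, at 1.79 ± 1.45 and 0.884 ± 0.380 junction RPM. Its log2 fold change of -0.99 became -0.13 without control replicate 3. The longer circle, at chr19:28530873-28540408, gave 0.478, 0.609 and 0.413 in control and 0.654, 1.09 and 0.820 in H/R, all H/R libraries above all controls (chosen after its values were seen). Neither passed the test (adjusted p = 0.646 and 0.735, edgeR), and the difference between the circles was not tested.

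**Figure D3:**
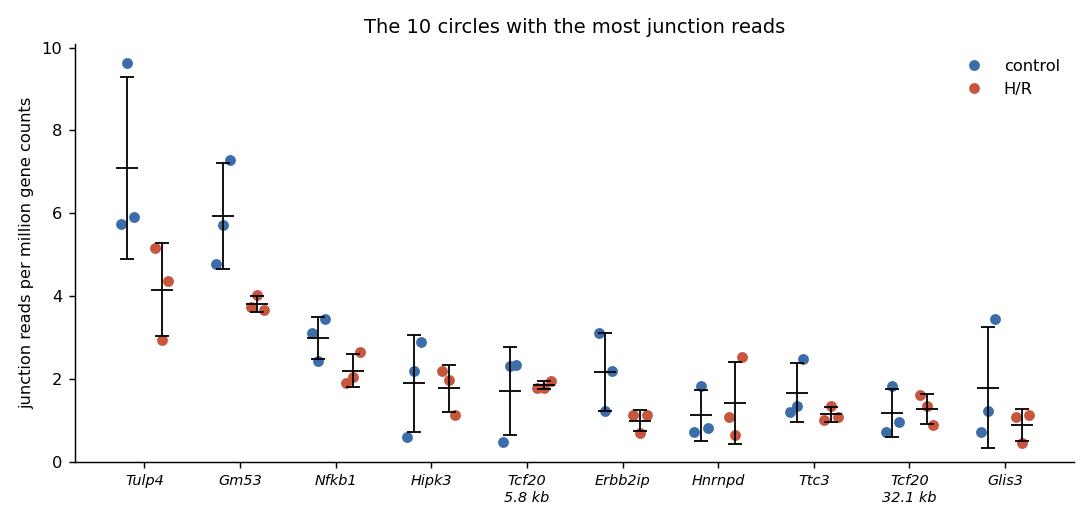
Junction RPM (reads per 1000000 gene counts) of the 10 circles with the most reads, named by host gene and, where a host has more than 1 among them, by span in kb, with each library as a point and bars for the mean and SD of 3 libraries. The Tulp4, Gm53 and Erbb2ip circles have all H/R points below all control points, and the other 7 overlap.

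The smallest p values came from circles outside the 10 most abundant. Among those higher in H/R the smallest was that of a circle antisense to Epha5, an ephrin receptor gene, at chr5:84123959-84124137 with 179 bp and in none of the catalogues. It had 3, 0 and 4 reads in control and 23, 25 and 15 in H/R, or 0.303 ± 0.279 and 1.30 ± 0.331 junction RPM (log2 fold change 2.10, standard error 0.78, adjusted p = 0.646, edgeR). Without control replicate 3 the log2 fold change was 2.79, and without control replicate 2 it was 1.51. The library kit's strand setting is not given in the sources used here. A circle of Lrp6, a Wnt co-receptor gene, had 2, 5 and 6 reads in H/R and none in control. That of Spag5, a spindle protein gene, had 1, 6 and 5 and also none in control. Against a floor of 3 counts over the control group they were 2.14-fold and 1.97-fold higher in H/R. Such ratios make no allowance for the spread between libraries and are not lower bounds.

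Lower in H/R stood circles of Eif4e, the cap-binding translation factor, of Pak3, a p21-activated kinase gene, and of Ash1l, a histone methyltransferase gene. The Eif4e circle had 5, 4 and 2 reads in control and the Pak3 circle 6, 3 and 2, and both had 0 reads in every H/R library. Against the same floor, put in for the H/R group, each was 7.43-fold lower in H/R, again with no allowance for the spread. The Ash1l circle had 0, 8 and 2 reads in control and 0 in H/R, 6.75-fold lower against this floor. None of these passed (adjusted p = 0.523 for Eif4e and Pak3 and 0.609 for Ash1l, edgeR). Circles with reads in 1 group only met the limit of 5 reads through that group, and their direction follows from it.

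The circles came from 517 host genes, and the most varied hosts combined a few splice sites in several ways. Zfp644, a zinc finger gene, had 6 circles from 3 starts and 2 ends on the genome, which is every possible pair. Tulp4 had 4 circles with the same start and 4 ends, and Strn3, a striatin gene, 5 circles with 1 common end position on the genome. Eya1 and Kansl1l had 5 circles each. Among all members, 183 (27.3%) shared a start or an end with another member, and these held 37.6% of the member reads.

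The Strn3 junctions show the sharing of an end. These circles have the same capitals, because all open at exon 2, and the lower-case part gives the end of the exon that is joined back to it (GENCODE vM21, GRCm38, minus strand).
Strn3, exons 2 to 7, chr12:51647994-51661713: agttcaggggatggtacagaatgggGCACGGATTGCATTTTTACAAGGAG
Strn3, exons 2 to 13, chr12:51627110-51661713: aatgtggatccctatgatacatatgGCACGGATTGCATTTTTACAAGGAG
Strn3, exons 2 to 15, chr12:51621780-51661713: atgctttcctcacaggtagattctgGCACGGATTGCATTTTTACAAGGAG
Strn3, exons 2 to 16, chr12:51619814-51661713: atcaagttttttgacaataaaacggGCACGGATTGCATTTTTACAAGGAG
The circle of exons 2 to 7 had the most reads of the 5 (29), with 5, 2 and 2 in control and 8, 6 and 6 in H/R. The circle of exons 2 to 15 had 21 reads, of which 12 came from H/R replicate 2, and those of exons 2 to 16 and 2 to 13 had 13 and 5. The fifth, at chr12:51648006-51661713 with 6 reads from H/R replicate 3 alone, also opens at exon 2. Its other end is no annotated exon end, so no sequence is given for it. Summed over its 5 circles, Strn3 gave 1.08, 0.731 and 1.10 junction RPM in control and 0.654, 1.28 and 1.26 in H/R, and the groups overlapped.

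Summed by host, 0 of 517 genes (0%) passed the edgeR test, with 29 at an unadjusted p under 0.05, and DESeq2 called 0, with 11. Planted changes in simulated host sums were not called either. The 5 hosts with the most junction reads were Tulp4 (441), Gm53 (324), Tcf20 (219), Nfkb1 (182) and Zfp644 (165). Without overlap between the groups, 19 host sums were lower and 22 higher in H/R, 7.93% of the hosts together, beside the 0% called. As for the circles, this share is no evidence of a change. Among the hosts with the most circles, the circles of Eya1, a transcription coactivator and phosphatase gene, gave 1.31, 1.22 and 1.10 junction RPM in control and 0.654, 0.320 and 0.315 in H/R. All its H/R libraries were below its controls (log2 fold change -1.47, standard error 0.70, adjusted p = 0.629, edgeR).

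Junction reads of a host and the level of its mRNA had no clear relation. A junction is 1 position, so junction reads need no length, while the mRNA is given in CPM per kb of the longest transcript, here without TMM factors. Across 510 hosts in both tables Spearman's rho was 0.07 and Pearson's r on log2 values 0.04, given as a description across genes that share the 6 libraries, and the cut at 5 reads narrows the range of junction reads. Hosts had a median of 1.16 junction reads per 1000 gene counts, with quartiles of 0.528 and 2.90.

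Some hosts had far more circle reads for their mRNA. Ankib1, an E3 ubiquitin ligase gene, had 69 junction reads from 1 circle of exons 2 to 5 and 135 gene counts, or 511 junction reads per 1000 gene counts. Its circle was seen in all 6 libraries, with 11, 13 and 7 reads in control and 11, 17 and 10 in H/R. Glcci1 had 171 junction reads per 1000 gene counts, Chd9, a chromodomain helicase gene, 162, and Atp9b, a phospholipid flippase gene, 390. The highest ratio was that of Gm20459 (7 junction reads and 4 gene counts), and it rests on too few counts to be ranked. Gm20459 and Glcci1 overlap other genes on the same strand, so their gene counts are uncertain. The gene counts of Ankib1, Chd9 and Atp9b were also very low for their circle reads, and whether the counting placed their reads elsewhere was not tested. Of the abundant hosts, Tcf20 had 2.90 and Hipk3 4.63 junction reads per 1000 gene counts.

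**Figure D4:**
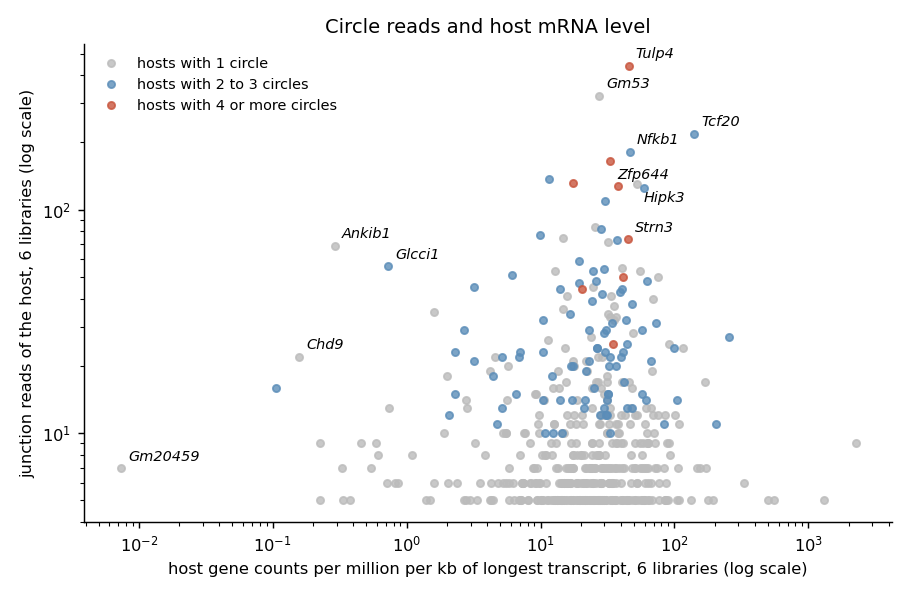
Junction reads of each of 510 hosts against its CPM per kb of the longest transcript, both over 6 libraries and on log scales, coloured by the number of member circles. The points form no slope (Spearman's rho 0.07), Tulp4 and Gm53 stand highest, and Ankib1, Glcci1 and Chd9 lie to the left with many circle reads for their mRNA.

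The mRNAs of the hosts had enough counts to be tested one by one. Of the 508 hosts tested in the gene fit, 87 were higher and 143 lower in H/R at an adjusted p under 0.05 (edgeR), or 17.1% and 28.1%. The whole gene table had 37.8% called, 18.8% higher and 19% lower of 11104 genes. The median log2 fold change was -0.10 for the hosts and 0.01 for all genes. Hosts had a median of 121 CPM and all tested genes 35.1 CPM, and how much of the gap in called shares follows the level was not tested. Without scaling factors the median of all genes moved to 0.22 and that of the hosts to 0.11, and the calls became 161 higher and 77 lower, or 31.7% and 15.2% beside 33.4% and 11.5% of all genes.

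The hosts were then grouped by their mRNA result, and the circle reads of each group were summed. The 87 hosts with higher mRNA had 103 circles, which gave 16.2, 18.4 and 20.9 junction RPM in control and 17.1, 13.9 and 19.4 in H/R (means 18.5 ± 2.34 and 16.8 ± 2.76). Their mRNA rose from 13728 ± 365 to 19033 ± 619 CPM as chosen. The 143 hosts with lower mRNA had 186 circles, at 34.9 ± 5.44 and 30.4 ± 3.59 junction RPM, while their mRNA went from 53303 ± 1243 to 27971 ± 704 CPM. The log2 ratios of the circle sums were -0.14, -0.20 and -0.17 for hosts with higher, lower and not passing mRNA, and all 3 overlapped between the groups. The mRNA sums carry TMM factors and the circle sums do not. The mRNA log2 ratios were 0.47, -0.93 and -0.04 with these factors and 0.69, -0.72 and 0.17 without them, on the scale of the circles. Since the mRNA values chose the groups and share libraries with the circles, the ratio of circles to mRNA moved with the choice and carries no test.

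**Figure D5:**
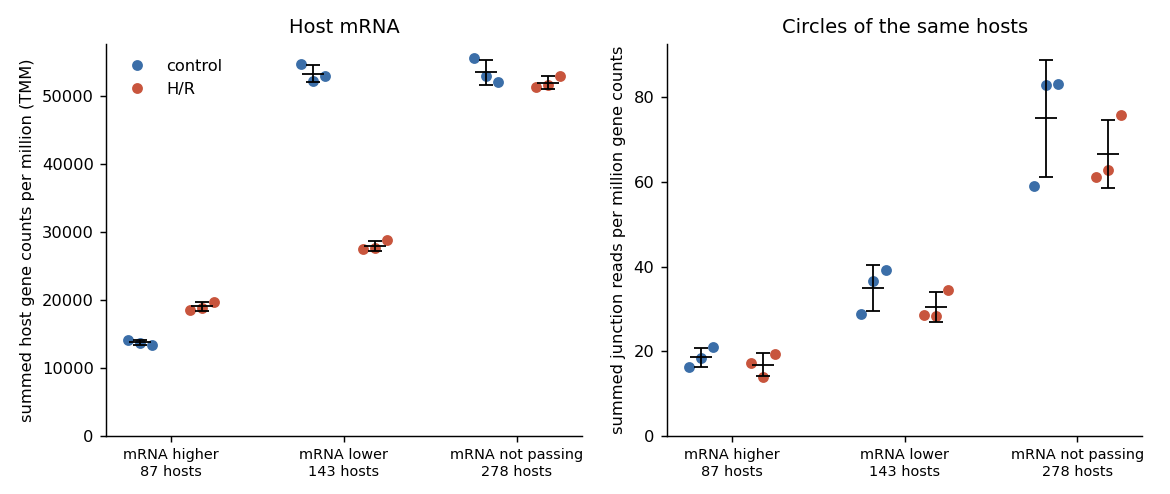
Summed CPM with TMM factors (left) and summed junction RPM (right) of host genes whose mRNA was higher, lower or not passing in H/R, with each library as a point and bars for the mean and SD of 3 libraries. The mRNA sums part by construction of the classes, and the circle sums overlap between control and H/R in all 3 classes.

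Host by host, the test of circles against mRNA, an interaction in 1 edgeR model over both counts, called 0 of 510 hosts (0%), with 24 at an unadjusted p under 0.05, and here too planted changes in simulated counts were not called. Nfkb1 mRNA rose from 149 ± 24.6 to 203 ± 12.7 CPM (log2 fold change 0.45, adjusted p = 0.00807, edgeR), and its circles went from 2.99 ± 0.511 to 2.30 ± 0.582 junction RPM. Hipk3 mRNA also rose (0.39, adjusted p = 0.00279, edgeR), from 311 ± 24.4 to 407 ± 3.77 CPM, beside a circle at 1.89 ± 1.17 and 1.77 ± 0.562 junction RPM. These CPM carry TMM factors and the junction RPM do not. Without scaling factors the log2 fold change of Hipk3 mRNA was 0.60. Eya1 mRNA fell by 0.54 on the log2 scale (adjusted p = 5.91e-04, edgeR).

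The smallest p values of that test belonged to hosts with circles in 1 group only. These hosts met the limit of 5 reads through that group, so the direction of their circles follows from the rule and their values are given as a description. Toward fewer circles for the mRNA in H/R stood Eif4e, Larp4, Ep300, Pak3 and Fkbp5, whose circles had 6 to 11 reads, none of them in H/R. Eif4e and Pak3 mRNA also fell in H/R, by 0.31 and 0.86 on the log2 scale, while the mRNA of Ep300, a histone acetyltransferase gene, and Fkbp5, a co-chaperone gene, rose by 0.44 and 0.68. Toward more circles stood Ipo7, Dcaf6, Dennd4a, Lrp6 and Spata5, with 7 to 13 reads and none in control. The mRNA of Ipo7, an importin gene, fell by 0.56 and that of Dennd4a by 1.12 on the log2 scale. The adjusted p of the interaction was 0.784 for all 10. With hosts of at least 10 junction reads alone the same test called 2, both toward fewer circles, Eif4e and Ash1l (adjusted p = 0.0460 for each). Their circles of at least 10 reads had no H/R read and met that limit through the controls alone, so the direction of these calls follows from the filter. Without the library block it called 1 host, the kinetochore gene Casc5 (adjusted p = 0.0298), again toward fewer circles (Casc5 was named after its value was seen).

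Genes for factors that act on circles were read from the gene fit, from lists chosen with earlier results of these data known. Of 28 tested genes for circle formation and splicing factors, 7 rose and 7 fell (median log2 fold change 0.00), beside 18.8% higher and 19% lower of all genes. Among those that rose were Qk, the RNA-binding protein quaking, which binds the introns beside circles (87.0 ± 4.92 to 114 ± 5.27 CPM, log2 fold change 0.38, adjusted p = 0.0071), and the splicing repressor Ptbp1 (274 ± 20.5 to 382 ± 11.8 CPM). Sf3a1, a part of the U2 snRNP, and Ilf2 rose by 0.59 and 0.69. Among those that fell were the splicing factors Rbfox2 (622 ± 22.2 to 394 ± 13.9 CPM) and Mbnl2 (617 ± 15.3 to 395 ± 14.8 CPM) and Srsf6. Adar, the RNA editing enzyme, fell by 0.38, and Adar, Sfpq and Elavl1 were among those that no longer passed without scaling factors. These genes were also hosts themselves in 3 cases, Mbnl1 with 2 circles and 82 reads in all, Mbnl2 with 1 and Adar with 1.

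Of 12 tested genes for decay of circles and lariats, 6 rose and 0 fell, beside 18.8% and 19% of all genes, with a median log2 fold change of 0.25 beside 0.01 for all genes. Among the 6, Upf1, an RNA helicase of nonsense-mediated decay, rose from 84.2 ± 4.31 to 135 ± 6.98 CPM (log2 fold change 0.68, standard error 0.10, adjusted p = 0.00012, edgeR). Dbr1, the lariat debranching enzyme, rose from 17.3 ± 3.14 to 28.6 ± 5.17 CPM. G3bp2, Ago2 and Zc3h12a, which encode RNA-binding proteins and, for Ago2 and Zc3h12a, nucleases, also rose, and all 6 also passed without scaling factors. Of 9 tested genes for circle export and for m6A, a methyl mark on adenosine, 0 rose and 1 fell. These 9 hold genes of m6A-binding proteins and also the methyltransferase genes Mettl3 and Mettl14. The 1 that fell was the export helicase Ddx39b (134 ± 17.3 to 103 ± 8.45 CPM), which did not pass without scaling factors.

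Of 50 genes known from other work as hosts of abundant circles, 22 had member circles here, 33 in all with 1173 reads. Tulp4, Hipk3, Tcf20, Ankib1 and Mbnl1 held most of these reads. Among all 14665 genes counted, 510 hosted member circles. This list, too, was chosen with earlier results of these data known. The overlap is therefore no independent check of the circles, and it was not tested. Of the 45 listed genes tested for mRNA, 9 rose and 9 fell, close to the 18.8% higher and 19% lower of all genes. The median log2 fold change was 0.02, beside 0.01 for all genes. Nfib and Elk4 rose by 0.51 and 0.38 and Fbxw7 by 0.42, while Ddx17, Arhgap5, Dcaf6 and Stau2 fell by 0.52, 0.45, 0.54 and 0.63 on the log2 scale. The exon 3 circle of Foxo3 had 16 reads and the exon 2 circle of Zfp609 10 reads. The Arhgap5 circle at chr12:52516079-52519967 had 6, 9 and 3 reads in control and 2, 0 and 2 in H/R, with no overlap in junction RPM (adjusted p = 0.613, edgeR). The other circles of Arhgap5 share its start, and the groups overlapped for both. That at chr12:52516079-52542636 gave 0.478, 0.365 and 0 junction RPM in control and 0.119, 0.384 and 0.0631 in H/R.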

How the data were processed

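Total RNA of 3 control and 3 H/R libraries of C17.2 cells was depleted of ribosomal RNA and sequenced in pairs of 150 bp. The authors trimmed reads with cutadapt 1.9.3. The deposited gene counts are integer counts per gene, from HISAT2 2.0.4 alignments to mm10 counted with HTSeq 0.9.1. The deposited circRNA counts are reads over back-splice junctions called with DCC on STAR 2.5.1b alignments. The settings of DCC and the annotation release are not given in the sources used here. Every circle of that table has at least 2 reads in some library. The table's other column read here is the predicted length of each circle, which equalled the sum of annotated exons in 98.3% of 579 exonic members. A further 24 columns of per-sample values, the lncRNA table and the columns of the authors' own comparison (fold changes and p-values) were not used.

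Members were the circles with at least 5 reads over the 6 libraries. The members and gene lists were chosen with earlier results of these data known. Genomic starts are counted from 1. Hosts were matched to the gene table by transcript accession (625 circles) or symbol (31), and 15 circles had no gene there. Antisense and intergenic circles were left out of host sums, which hold 665 circles. Exon ends came from GENCODE vM21.

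Circles and host sums were tested with edgeR 4.0.16 (quasi-likelihood, two-sided, Benjamini-Hochberg), with the gene counts of the library as library size and no further factor. Genes were tested with TMM factors (0.920 to 0.938 in control and 1.07 to 1.08 in H/R) after edgeR's filter, which kept 11104 of 14665. CPM are gene counts per 1000000 with these factors. Circles against mRNA were tested as an interaction over 12 columns, with library as a block. Library values were compared with exact permutation tests in scipy 1.17.1, two-sided. The scripts were tested on simulated data. No 2 libraries of a group agreed within sampling noise over the gene counts. Alternatives were DESeq2 1.42.0, other scaling, other filters, all circles, replicate number as a block and each library left out in turn. One alternative, leaving out Tulp4, was added after seeing the data. Named were the 10 circles with the most reads, the 3 circles with the smallest p in each direction, the hosts with the most circles, reads or circles for their mRNA (5 each), 5 hosts in each direction of the interaction, and up to 4 genes per list and direction. Others are said to have been chosen after their values were seen, or belong to these lists. Some genes that this rule names are not reported here.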

Additional observations from a re-analysis of the deposited data

How the results depend on the processing

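The number of circles called stayed 0 except without control replicate 1, where it was 1 (the Tulp4 circle), so that leaving out 1 library gave 0 to 1. Host sums stayed at 0 under the alternatives run, leave-one-out included (0 to 0). Circles against host mRNA gave 1 call without the library block and 2 with hosts of at least 10 junction reads, and 0 to 0 when a library was left out. Host mRNAs called ranged from 172 to 254 when a library was left out, against 230. Same-numbered replicates deviated together at correlations of 0.039, 0.004 and 0.022, which does not show that the numbers pair the libraries. With replicate number as a block, 0 circles, 0 host sums and 224 host mRNAs were called.

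The log2 ratio of H/R to control of the member RPM was -0.16, with a range of -0.29 to -0.08 when a library was left out, -0.37 with TMM factors on the gene counts and -0.13 without the Tulp4 circle. By span, the ratio ran from -0.27 to -0.02 (under 1 kb), -0.38 to -0.16 (1 to 10 kb), -0.22 to 0.044 (10 to 50 kb, with 0.044 without control replicate 2, 0.0045 without control replicate 3 and 0.04 without H/R replicate 2) and -0.42 to 0.13 (over 50 kb, with 0.13 without control replicate 2 and 0.11 without H/R replicate 1) when a library was left out, and it was 0.13 over 50 kb with circles of at least 10 reads. By circles per host, the ratio for 1 circle was 0.00021 and turned to -0.21 with TMM factors, -0.041 with all circles, -0.14 with at least 10 reads, -0.13 without control replicate 1 and -0.10 without H/R replicate 3, ranging up to 0.11. With a library left out it ran from -0.52 to -0.21 for 2 to 3 circles and from -0.53 to -0.29 for 4 or more. With TMM factors these were -0.55 and -0.65, with all circles -0.066 and -0.29, and with at least 10 reads -0.40 and -0.05.

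Among the 10 circles with the most reads, signs turned with TMM factors over the circles for Nfkb1 (0.086), Hipk3 (0.59) and Ttc3 (0.060). There Tulp4 went to -0.20, Gm53 to -0.05 and Erbb2ip to -0.65, against -0.98, -0.85 and -1.34 with gene TMM factors. Hipk3 also turned with the replicate block (0.027), without control replicates 2 (0.04) and 3 (0.35) and without H/R replicate 3 (0.15). The Hnrnpd circle turned without H/R replicate 3 (-0.39). The shorter Tcf20 circle turned with gene TMM factors (-0.10) and without control replicate 1 (-0.33), and the longer with gene TMM factors (-0.085), without control replicate 1 (-0.13) and without H/R replicate 1 (-0.07). With a library left out, the ranges were -0.51 to 0.35 for Hipk3, -0.33 to 0.41 and -0.13 to 0.61 for the shorter and longer Tcf20 circles and -0.39 to 0.87 for Hnrnpd. The cause was not tested. Low read numbers per circle limit every comparison of single circles.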

Other observations

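Circles that the file classed outside exons were few, and their reads lay in a few places. The Tulp4 circle with the most reads was classed as intronic, although both its ends are exon ends of annotated transcripts. Of the 16 circles classed as intronic, the 15 other than that of Tulp4 gave 1.83 ± 0.627 junction RPM in control and 1.65 ± 0.290 in H/R (SD, n = 3). Ahnak, which encodes a very large scaffold protein, had 3 of them with 15, 7 and 5 reads, of which 3 reads came from controls. On the mitochondrial chromosome 2 members were found, with 7 and 5 reads, at Gm10222 and mt-Nd5. Of the long non-coding RNA genes, Pvt1 had an exon 2 circle with 44 reads (3, 13 and 10 in control and 8, 2 and 8 in H/R), and Malat1 a circle of 189 bp with 5 reads, all from H/R. All these were chosen after their values were seen, and their host genes were not in the gene table for Pvt1 and Malat1.

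An Lrch3 circle at chr16:32950292-32961744, also chosen after its values were seen, had 2, 2 and 4 reads in control and 14, 14 and 19 in H/R. That is 0.239, 0.244 and 0.550 against 0.832, 0.895 and 1.20 junction RPM, with no overlap and an adjusted p of 0.646 (edgeR).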
